A study of Homo sapiens with 14 samples.

Results

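Human chromosome 19 carries 249 protein-coding genes whose names start with ZNF in GENCODE release 29 (GRCh38), out of 19940 protein-coding genes in that annotation. Membership was set by name and chromosome, with earlier results of these data known. Every RNA site called on the strand of these genes was followed through 14 libraries. Another 266 ZNF genes lie on other chromosomes, and 1223 protein-coding genes of chromosome 19 have other names. The libraries hold total RNA of 293FT, an established line of human embryonic kidney origin in which the SV40 large T antigen is present, and the series asks whether a prime editor changes bases away from its target without its guide RNA. Controls were 3 libraries of non-transfected cells (NT), 3 of cells given EGFP and 3 of cells given Cas9. Prime editor PE3, a Cas9 nickase joined to a reverse transcriptase and used with a further nicking guide, was given to 2 libraries, numbered 2 and 3, and PE3 replicate 1 was not analysed here. The cytosine base editor hA3A-BE3, a Cas9 nickase joined to the human deaminase APOBEC3A, was given to 3 libraries. All titles start with hRNF2, taken to be the targeted gene, and the protocol, given alike for all samples, describes a sort at the first 15% of fluorescence 40 h after transfection. Whether replicates were separate cultures is not in the labels. The p-values therefore measure only spread among the libraries at hand, and that spread may be technical.

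C2H2 zinc finger proteins bind DNA through repeated fingers, each a short loop in which a pair of cysteines and a pair of histidines hold a zinc ion. Many on chromosome 19 also carry a KRAB domain, which recruits the co-repressor TRIM28 and is best known for silencing transposable elements, and their genes lie in tandem runs made by duplication. ADAR enzymes turn adenosine into inosine, read as G, in double-stranded RNA, which in human transcripts often forms between inverted Alu copies in 3′ UTRs and introns. APOBEC3A turns cytosine into uracil, mostly in single-stranded stretches and after a U. A coding model was found for 248 of the 249 genes. A KRAB-A match was present in 177 of them, and the models held a median of 12 fingers (range 0 to 39), 3108 in all, which made up 43.6% of their residues. The same share was 27.7% in the ZNF genes of other chromosomes and 0.886% in the other genes of chromosome 19.

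The data of a library are a list of called sites. A site is written here as C-to-U or A-to-I on the strand of its gene. All 14 libraries are of RNA, so whether a called change is also present in the DNA of the cells was not tested. The lists hold only sites with at least 2 mutated reads, an edited level (share of covering reads with the changed base) of at least 5.02% and a depth of at least 3.01 reads per gigabase (Gb), so a site missing from a list was not measured at 0. A constant within each list, read as mapped bases, lay between 3.26 Gb (PE3 replicate 2, which also had the fewest calls, 1102) and 10.6 Gb (Cas9 replicate 3), and the median site of a library was covered by 11 to 44 reads. The files hold no expression values, so the identity of the cells could not be checked against marker genes, and fewer cells expressing a gene and less RNA per cell cannot be told apart. In the zinc finger genes a call had a median of 25 covering reads and 64.9% of calls rested on fewer than 5 mutated reads. Intervals on a single level cover counting error only.

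The bases around the sites that the results turn on are printed first, as 21 bases of the GENCODE transcript with the changed base in capitals (T stands for U). The first set shows adenosines in 3′ UTRs that were called in all or nearly all libraries, chosen because they let levels be compared across groups.
ZNF121 3′ UTR, minus strand, position 9562939: taaagactgcAggtgtgcacc
ZNF121 3′ UTR, minus strand, position 9562305: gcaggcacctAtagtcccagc
ZNF431 3′ UTR, plus strand, position 21184291: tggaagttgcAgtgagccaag
ZNF431 3′ UTR, plus strand, position 21190058: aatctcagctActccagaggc
The second set shows cytosines that were recurrent, meaning called in each of the 3 hA3A-BE3 libraries but nowhere else, with the protein change in the annotated model (X for a stop).
ZNF14 R407X, minus strand, position 19712062: aagttcccttCgagaacacga
ZNF554 Q264X, plus strand, position 2834025: aaaccaccatCagctgggata
ZNF587B R238X, plus strand, position 57841386: acttctccctCgagaagaatg
ZNF607 3′ UTR, minus strand, position 37697166: cgccagtcatCactggtagca
ZNF317 3′ UTR, plus strand, position 9162629: actctctcatCatgaaaacag
ZNF317 5′ UTR, plus strand, position 9140496: ggggacccctCgtgtccccac
ZNF460 R263C, plus strand, position 57291328: gaccttcaatCgcgggtcgca
ZNF180 S222L, minus strand, position 44477816: aaacatgtatCacatgctaaa
ZNF714 S186L, plus strand, position 21117221: aagcggttctCaacccttact
A further set shows the places within the repeated finger where hA3A-BE3 sites were found in several genes, a glutamine codon after the first zinc-binding histidine and a conserved phenylalanine codon.
ZNF583 Q231X, plus strand, position 56423349: tactcttcatCagagaattca
ZNF583 Q511X, plus strand, position 56424189: tactctacatCagagaattca
ZNF211 Q356X, plus strand, position 57641396: cattatacatCagagagttca
ZNF850 Q384X, minus strand, position 36749890: aattcgacatCagcgaattca
ZNF317 F455F, plus strand, position 9161010: ggaaagctttCagcgcgagtt
ZNF569 F671F, minus strand, position 37412645: gcaaggctttCagccaaaagt
ZNF260 F397F, minus strand, position 36514048: ggaaagctttCagccaaaagt
All of these positions are on chromosome 19 of GRCh38, and every cytosine in the second and further sets has a T before it.

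Of the 249 genes, 100 had a called site of any kind in at least 1 library, 40.2%. The share was 38.7% in the ZNF genes of other chromosomes and 27.2% in all protein-coding genes. The 249 genes held 729 distinct sites and 1722 calls. A-to-I sites numbered 435 in 58 genes (1327 calls), C-to-U sites 137 in 66 genes (193 calls) and all other changes 157 in 55 genes (202 calls). An A-to-I site was present in 23.3% of the zinc finger genes, in 14.3% of the ZNF genes of other chromosomes, in 5.64% of the other chromosome 19 genes and in 6.54% of all protein-coding genes. A C-to-U site in at least 1 hA3A-BE3 library was present in 65 of the zinc finger genes, 26.1%. All protein-coding genes had a close share, 23.1%, and the ZNF genes of other chromosomes had 29.7%. The files give no expression level, so the part of transcript abundance in these shares was not tested.

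Cells given hA3A-BE3 carried many more C-to-U sites in these transcripts than control cells. The hA3A-BE3 libraries held 25, 52 and 85 sites, a mean of 54.0 ± 30.05 (SD, n = 3). The NT libraries held 2 each, the EGFP libraries 5, 4 and 3 and the Cas9 libraries 3, 3 and 2, a mean of 2.89 ± 1.05 over the 9 controls. The lowest hA3A-BE3 count was above the highest control count. On the scale of log2(sites + 1) hA3A-BE3 exceeded controls by 3.70, which is 13-fold (95% interval 6.54 to 22.4). The two-sided exact permutation test gave p = 0.00909, which no split of 3 and 9 libraries can go under, and an adjusted p = 0.0455 (Benjamini-Hochberg, 10 comparisons). The adjusted p rose above 0.05 whenever any library was left out (0.0606 to 0.182), since the smallest p then rises. It was also above 0.05 with at least 20 covering reads, 50 covering reads or 5 mutated reads per site, while the log2 difference stayed between 2.60 and 4.04. Within the group the numbers ran with those of the whole lists, which held 4689, 7369 and 9278 calls in the same order.

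**Figure D1:**
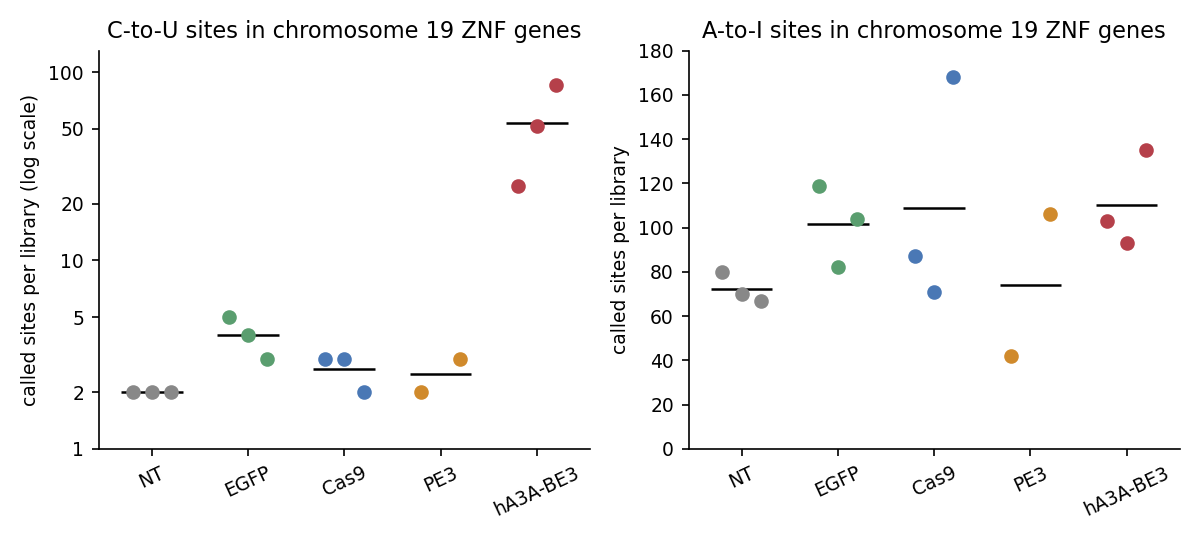
Called C-to-U sites (left, log scale) and A-to-I sites (right, linear scale) in the chromosome 19 ZNF genes, 1 point per library, with the group mean as a line. The 3 hA3A-BE3 libraries (25 to 85 C-to-U sites) lie above all others (2 to 5), while the A-to-I counts of the hA3A-BE3 libraries (93 to 135) and of PE3 replicate 3 (106) lie within the range of the 9 controls (67 to 168).

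The 2 PE3 libraries held 2 and 3 C-to-U sites, within the range of the controls. The difference from controls was −0.12 on the log2 scale, a fold of 0.918 with a 95% interval of 0.500 to 1.33 (exact permutation p = 1.00 at 55 assignments, smallest possible 0.0364). No site of any kind in these genes was called in both PE3 libraries and in no other group. Per Gb of mapped bases the C-to-U difference turned to 0.40 (log2), p = 0.327 by the exact permutation test. The PE3 sites were an intronic site of ZNF544 called in 13 of the 14 libraries, and 3 calls made in a single PE3 library. ZNF823 A5A was called at 33.3% (3 of 9 reads, 95% Wilson interval 12.1 to 64.6%), ZNF548 P280S at 11.1% (3 of 27, 3.85 to 28.1%) and ZNF548 C283C at 10.0% (3 of 30, 3.46 to 25.6%).

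C-to-U sites called with hA3A-BE3 were spread thinly over many genes. Of 126 distinct sites in 65 genes, 124 were called in hA3A-BE3 libraries only: 98 in 1 library, 17 in a pair of libraries and 9 in all 3. Those 9 lay in 8 genes, 3.21% of the zinc finger genes, against 4.38% of all protein-coding genes and 3.76% of the ZNF genes of other chromosomes. By region, 88 of the 126 were coding, 30 in 3′ UTRs, 7 in 5′ UTRs and 1 in an intron. A U preceded the changed C at 96.0% of the 125 exonic sites. The next base upstream was A at 48.8% and U at 31.2% of all 125, those without a preceding U included. The same shares over the 9979 hA3A-BE3 sites of other protein-coding genes were 95.3%, 52.5% and 26.7%. No test was run on these shares.

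Their weight among all C-to-U calls differed from that in controls. Zinc finger genes held 1.02%, 1.03% and 1.34% of the protein-coding C-to-U sites of the hA3A-BE3 libraries (mean 1.13% ± 0.180, SD, n = 3), and 4% to 12.2% of those of the 9 controls (mean 7.31% ± 2.74). The difference was −6.18 percentage points, 95% interval −10.3 to −3.33 (exact permutation p = 0.00909, adjusted p = 0.0455). The control values rest on 2 to 5 sites per library, among them the same ZNF544 site in all 9 controls and the same ZNF584 site in 8. The call was lost with at least 50 covering reads, at −0.57 points (exact permutation p = 0.509), and also, by the same test, with 20 reads or 5 mutated reads (adjusted p = 0.182 each) and without any 1 library (0.0606 to 0.182). PE3 stood at 5.26% and 7.32%, a difference from controls of −1.02 points (−6.92 to 3.31, p = 0.727 by the exact permutation test).

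Among the 9 recurrent sites, 3 make a stop codon. ZNF14 R407X had the highest level, 31.6%, 63.2% and 46.2% of 19, 19 and 26 reads in hA3A-BE3 replicates 1, 2 and 3, a mean of 47.0% ± 15.8 (SD, n = 3). The codon lies in finger 9 of the 17 fingers of ZNF14, a KRAB zinc finger protein of 642 residues. A second arginine codon of the same gene, R519X in finger 13, was called in replicates 1 and 2 at 13.8% and 36%. The 11 bases centred on the C are the same at both, and both codons are residue 15 of their fingers, counted from the first cysteine.

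ZNF554 Q264X was called at 20%, 42.1% and 30.0% of 15 to 20 reads (30.7% ± 11.1, SD, n = 3), upstream of the 7 fingers of the 538-residue model. ZNF587B R238X stood at 14.7%, 32.1% and 30.3% of 28 to 34 reads (25.7% ± 9.58). The site in the 3′ UTR of ZNF607 was called at 20.8%, 23.5% and 44.1% of 17 to 34 reads (29.5% ± 12.7). At all 9 recurrent sites the lowest level was that of replicate 1, which also had the lowest C-to-U count of the group, a pattern seen in the data and not tested.

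ZNF317, a KRAB zinc finger gene, had 7 hA3A-BE3 sites, 2 of them recurrent. The 3′ UTR site was called at 19.6%, 37.5% and 31.0% of 40 to 71 reads (29.4% ± 9.04, SD, n = 3). Its 5′ UTR site stood lower, at 5.56%, 25.7% and 17% of 70 to 88 reads (16.1% ± 10.1), so replicates of the group differed widely at the same position. The 3 recurrent missense sites had lower means: ZNF460 R263C 15.6% ± 4.13, ZNF180 S222L 10.7% ± 4.05 and ZNF714 S186L 10.0% ± 4.44 (SD, n = 3). ZNF714 S186L was the deepest of the coding ones, at 79 to 127 reads. Its neighbour of the same gene run, ZNF430, was changed at the matching serine, S246L, at 10.9% and 11.7% in hA3A-BE3 replicates 2 and 3, with the same 11 bases around the C and the same residue 12 of the second finger in both proteins.

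Other stop codons were called in a pair of hA3A-BE3 libraries. They were ZNF101 R213X (16.7% and 18.9%), ZNF264 R325X (18.2% and 15.8%), ZNF507 R664X (17.6% and 12.1%) and ZNF850 Q384X (7.69% and 11.1%). ZNF568 H576Y replaces a zinc-binding histidine of finger 13 and was called at 38.1% and 15.0%. The histidine is residue 17 of the finger.

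Stop codons made up a larger share of the coding hA3A-BE3 sites in zinc finger genes than elsewhere. Of the 88 coding sites 29 created a stop, 24 changed an amino acid and 35 were synonymous. By library the stop share was 40.0%, 38.5% and 30.4% of 20, 39 and 56 coding sites (36.3% ± 5.18, SD, n = 3). In all other protein-coding genes it was 13.5% ± 1.21, in ZNF genes of other chromosomes 19.6% ± 3.02 and in other chromosome 19 genes 4.82% ± 1.32. The difference from other protein-coding genes was 22.8 points and from other ZNF genes 16.7 points, with the zinc finger genes higher in 3 of 3 libraries both times, and a sign-flip test over 3 libraries cannot give an exact p under 0.250, which is what each gave. Synonymous sites made up 33.1% ± 8.04 in the zinc finger genes and 51.9% ± 2.01 in other protein-coding genes. In ZNF genes of other chromosomes they made up 27.4% ± 10.8, with the zinc finger genes higher in 2 of 3 libraries.

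The coding sequences differ in the same direction for the stop share. Over the annotated models, 13.9% of the cytosines after a U in zinc finger genes would give a stop if changed to U, against 6.36% in other protein-coding genes, 10.1% in other ZNF genes and 3.55% in other chromosome 19 genes. Synonymous positions made up 29.9% and 46.3% in the zinc finger genes and in other protein-coding genes. In other ZNF genes they made up 35.5%, so there the mean share of called synonymous sites differed in the other direction. The number of UpC dinucleotides per kilobase of coding sequence was 54.9 and 57.5. The part that codon makeup plays in the share of called stops was not tested.

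Within the finger, residues 8 and 18 held the most called sites. Of the 88 coding sites 53 lay in a finger, 3 between neighbouring fingers and 32 outside, and 60%, 56.4% and 64.3% of the coding sites of the hA3A-BE3 libraries were in fingers. In the models, 55.9% of all UpC dinucleotides of the coding sequence lie in fingers. Of the 53 sites 52 followed a U. Residue 8, the phenylalanine of the hydrophobic core of the finger, held 16 of them in 14 genes, all synonymous. In 15 of the 16 the codon was for phenylalanine, and in ZNF101 I234I it was for isoleucine. Residue 18, next to the first zinc-binding histidine, held 12 in 11 genes, 8 of them glutamine codons turned into stops and 4 arginine codons turned into cysteine or tryptophan.

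Counts of called sites did not follow the number of UpC dinucleotides. These were counted over all 248 models, though 149 of the zinc finger genes had no called site of any kind. The part of coverage in these counts was not tested. Residue 8 held 9.61% of the 13802 UpC dinucleotides in fingers and 30.8% of the 52 called, and residue 18 held 8.30% and 23.1%. Residue 9 had 4 called of 268 UpC dinucleotides and residue 17 had 4 of 485, so a high ratio of called sites was not particular to residues 8 and 18. Residue 21, the second histidine, had the most UpC dinucleotides, 2138, and 1 called site, and residue 12 had 1989 and 4. Residues 8 and 18 made up 3 of 11, 10 of 22 and 19 of 36 finger sites of the 3 libraries, so the lowest share was in replicate 1. The residues were singled out after their counts were seen, and no test was run.

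The base before the U also differed between finger positions. At residue 18 it was A in 97.3% of the models' UpC dinucleotides, and all 12 called sites had it. At residue 8 it was U in 98.9%. Over all fingers, A stood before 24.0% of UpC dinucleotides and 44.2% of called sites, G before 14.5% and 0 of 52. Levels in fingers varied, and the highest mean was 47.0% at residue 15, in ZNF14 R407X. At residue 8 they ran from 5.19% in ZNF460 F205F (8 of 154 reads, 95% Wilson interval 2.66 to 9.92%) to 33.3% in ZNF699 F260F (4 of 12, 13.8 to 60.9%). ZNF583, a KRAB zinc finger gene, was called at 2 of its glutamine codons, Q231X at 15.8% (3 of 19 reads, 5.52 to 37.6%) in replicate 2 and Q511X at 17.6% (3 of 17, 6.19 to 41.0%) in replicate 3.

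**Figure D2:**
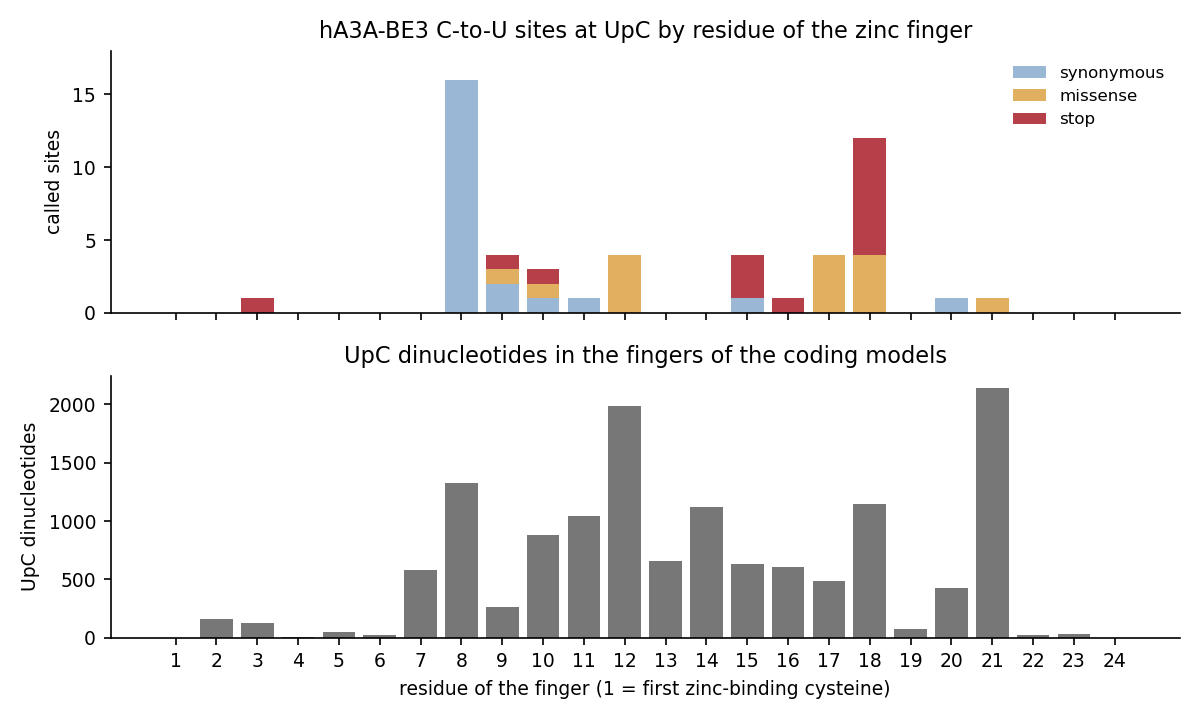
Top, distinct hA3A-BE3 C-to-U sites after a U by residue of the finger (1 is the first zinc-binding cysteine), stacked by effect on the protein. Bottom, UpC dinucleotides at the same residues over the 3108 fingers of the models; residues 8 and 18 hold 16 and 12 of 52 called sites, while residue 21, with the most UpC dinucleotides (2138), holds 1.

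Reads from repeated finger sequences can be placed on the wrong gene, and the files hold no mapping qualities. The 21-base window with the changed base put in was found in a transcript of another gene for 6.40% of the hA3A-BE3 C-to-U sites and for 4 of the 12 exonic C-to-U sites called in controls or PE3 (33.3%). None of the 9 recurrent sites had such a match. For coding sites of any C-to-U kind the share was 8.16% in zinc finger genes and 0.578% in other protein-coding genes. Within a gene, ZNF845 F504F and F644F have the same 21 bases, so their reads cannot be assigned with certainty. With all sites that have such a match left out, the hA3A-BE3 excess kept its direction and its side of the threshold.

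Few C-to-U sites were called without the base editor. A total of 10 were called in controls, in 7 genes, 2.81% of the zinc finger genes. The share was 2.63% in the ZNF genes of other chromosomes and 0.918% in all protein-coding genes. The intronic site of ZNF544 was called in all 9 controls, both PE3 libraries and 2 hA3A-BE3 libraries, at 18.2% to 58.8% (mean 37.3% ± 12.4, SD, n = 13), on 11 to 24 reads. ZNF584 P142S was called in 8 controls and 1 hA3A-BE3 library at 20.8% to 44.4% (30.6% ± 7.09, SD, n = 9). The C of P142S follows an A. ZNF254 L224L was called at 9.68% in EGFP replicate 1 and 9.84% in Cas9 replicate 1, and 13 other genes carry its unchanged window. The other 7 control sites were each called in a single library, among them ZNF431 S272F at 14.8% (4 of 27 reads, 5.92 to 32.5%) and ZNF329 H277H at 12.5% (3 of 24, 4.34 to 31.0%).

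A-to-I sites were called in every library, between 42 and 168 of them. The NT libraries held 80, 70 and 67, EGFP 119, 82 and 104, Cas9 87, 71 and 168, PE3 42 and 106, and hA3A-BE3 103, 93 and 135. Every NT library lay below every EGFP and every hA3A-BE3 library, an order seen in the data and not tested. The 3 hA3A-BE3 libraries (110.3 ± 21.9, SD, n = 3) and the 9 controls (94.2 ± 32.4, n = 9) overlapped, a fold of 1.21 with a 95% interval of 0.784 to 1.70 (exact permutation p = 0.336, adjusted p = 0.591). PE3 gave a fold of 0.743, 0.255 to 1.57 (exact permutation p = 0.291, adjusted p = 0.591). The highest and lowest counts were those of the deepest and the shallowest library. Per Gb of mapped bases the range narrowed to 10.1 to 17.3 sites, and on the log2 scale PE3 went from −0.43 against controls to 0.10 (p = 0.618 by the exact permutation test).

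As a share of all protein-coding A-to-I sites, the zinc finger genes held 3.81% to 7.08%. Controls averaged 5.31% ± 1.23 (SD, n = 9), PE3 5.79% ± 0.0803 (n = 2) and hA3A-BE3 6.04% ± 0.438 (n = 3). Neither difference passed the test, at 0.73 points for hA3A-BE3 (−0.96 to 2.24, exact permutation p = 0.355) and 0.48 for PE3 (−1.35 to 2.03, p = 0.618). The 3 control groups did not overlap each other, with NT at 3.81% to 4.20%, EGFP at 4.72% to 5.51% and Cas9 at 6.53% to 7.08%. The hA3A-BE3 libraries, at 5.53% to 6.32%, lay above every NT and EGFP library and below every Cas9 library. So did both PE3 libraries, at 5.73% and 5.84%. Each pooled difference therefore averages over control groups that lay on either side. These orders were seen in the data and were not tested.

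The sites were concentrated in a few genes. ZNF714 held 48, ZNF431 47 and ZNF121 44 distinct A-to-I sites, 32% of the 435. With ZNF557 (27), ZNF562 (26), ZNF8 (23), ZNF724 (21), ZNF850 (18), ZNF426 (16) and ZNF587B (14) the 10 leading genes held 65.3%. At least 10 sites were found in 12 of the zinc finger genes, 4.82%, against 2.63% of the ZNF genes of other chromosomes and 1.2% of all protein-coding genes, and 17 had exactly 1. Counted over genes with any A-to-I site, these were 12 of 58, 7 of 38 and 240 of 1305. Such concentration was therefore not particular to the chromosome 19 genes. By the gene runs of the chromosome, 37 genes between 19668796 and 24129961 held 152 sites, 16 genes between 7069444 and 9793180 held 115, and 59 genes between 55476332 and 58481230 held 89. A run is a stretch in which neighbouring ZNF genes are at most 1 Mb apart. The gene with the most sites was ZNF714, ZNF121 and ZNF8 in these 3 runs.

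ZNF121, ZNF431 and ZNF714 were called in all 14 libraries, though not evenly. ZNF121 had 14, 15 and 9 sites in NT, 26, 22 and 24 in EGFP, 10, 9 and 18 in Cas9, 13 and 20 in PE3 and 13, 14 and 16 in hA3A-BE3. All 3 EGFP libraries lay above every other library in this gene. ZNF431 had 14 sites in each NT library, 11 to 15 in EGFP, 19 to 23 in Cas9, 7 and 23 in PE3 and 20 to 22 in hA3A-BE3. ZNF714 ranged from 2 sites in NT replicate 3 to 27 in Cas9 replicate 3. ZNF562 had 0 sites in both PE3 libraries and 1 to 12 in every other library, and ZNF557 had 1 and 0 in PE3, 0, 2 and 7 in NT and 8 to 15 in Cas9. The lists give no coverage for a gene without a call, so a count of 0 can be had from few covering reads as well as from little editing, and these cannot be told apart.

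Of the 435 A-to-I sites 221 were called in a single library and 65 in a pair. A set of 24 were called in at least 12 libraries, 11 of them in ZNF431, 7 in ZNF121, 2 in ZNF850 and 1 each in ZNF331, ZNF426, ZNF714 and ZNF724. All but the ZNF331 site lay in 3′ UTRs. The highest level among the ZNF121 sites was at position 9562305, 31.8% ± 5.40 (SD, n = 13), from 23.3% to 40.4%. The adenosine at 21190058 in ZNF431 had 29% ± 10.8 (SD, n = 13).

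Levels could be compared at the 7 sites called in all 14 libraries, 5 in ZNF121 and 2 in ZNF431. The ZNF121 site at 9562939 was edited at 20.3%, 17.4% and 16.1% in NT, 30.3%, 23.9% and 38.1% in EGFP, 26.2%, 18.3% and 23.2% in Cas9, 25% and 32.9% in PE3 and 24.4%, 21.2% and 23.8% in hA3A-BE3, on 24 to 190 reads. The ZNF431 site at 21184291 was edited at 18.2%, 16% and 10.7% in NT, 18.8%, 16.3% and 21.2% in EGFP, 21.2%, 28.9% and 10.7% in Cas9, 33.3% and 29.5% in PE3 and 19.6%, 15.9% and 24.5% in hA3A-BE3, on 15 to 61 reads. At that site both PE3 libraries lay above every other library, and at the ZNF121 site they lay within the range of EGFP.

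Averaged over the 7 sites, the level was 15.7% ± 2.78 in controls (SD, n = 9), 15.4% ± 2.59 in hA3A-BE3 (n = 3) and 18.7% ± 0.394 in PE3 (n = 2). The hA3A-BE3 difference was −0.28 points (−4.36 to 4.07, exact permutation p = 0.855) and the PE3 difference 2.95 points (−1.24 to 8.13, exact permutation p = 0.182, adjusted p = 0.591). The PE3 value moved between 0.54 points with at least 20 reads and 9.41 over the KRAB-A genes, and passed the test in none of 7 alternatives. Only ZNF121 sites remained at 20 reads, and only ZNF431 sites over the KRAB-A genes, since ZNF121 had no KRAB-A match. The ends of that range therefore come from different genes. Intervals of this width leave changes of several points undetectable at this depth. Within controls, NT averaged 13.2% ± 2.08 and EGFP 18.7% ± 0.999 (n = 3 each), and these 2 groups did not overlap.

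A-to-I sites of the zinc finger genes lay in 3′ UTRs more often than those of other genes. The sign-flip tests of gene sets measure spread among libraries that read the same genes, and not spread among genes. Of the 435 distinct sites 334 were in 3′ UTRs, 52 in introns, 45 in coding sequence and 4 in 5′ UTRs. The 3′ UTR share of a library's sites ran from 75.0% to 93.3% (mean 85.5% ± 5.68, SD, n = 14). In other protein-coding genes it was 68.5% ± 4.98, a difference of 16.9 points, higher in 14 of 14 libraries (exact sign-flip p = 0.000122, the smallest possible, adjusted p = 0.000732 over 12 paired comparisons). Against other chromosome 19 genes, at 43.0% ± 7.02, it was 42.4 points, again in 14 of 14 (exact sign-flip test, adjusted p = 0.000732). Both kept their direction and adjusted p under 0.05 in every alternative that gave a value. Without ZNF714, ZNF431 and ZNF121 they fell to 10.6 and 36.1 points (exact sign-flip test, adjusted p = 0.0179 and 0.00146). Against ZNF genes of other chromosomes, at 69.2% ± 10.3, it was 16.3 points in 12 of 14 libraries (exact sign-flip p = 0.000854, adjusted p = 0.00256). That difference fell to 9.95 points (exact sign-flip test, adjusted p = 0.0575) without ZNF714, ZNF431 and ZNF121, and to 10.1 (adjusted p = 0.0656) with at least 5 mutated reads.

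The clustered share changed with the settings. A site was called clustered where another A-to-I site of the same library lay within 100 bases on the same strand. The clustered share was 81.9% ± 2.71 (SD, n = 14) in the zinc finger genes and 80.2% ± 4.37 in other protein-coding genes, a difference of 1.70 points (exact sign-flip p = 0.0701, adjusted p = 0.120). Without the 3 leading genes it turned to −3.88 (exact sign-flip test, adjusted p = 0.0259). Against the other ZNF genes, at 71.9% ± 10.8, the difference was 9.97 points in 13 of 14 libraries (exact sign-flip p = 0.000854, adjusted p = 0.00256). By the same exact test it was −0.10 (adjusted p = 0.970) over 3′ UTR sites alone, and 4.39 (adjusted p = 0.341) without the 3 leading genes.

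**Figure D3:**
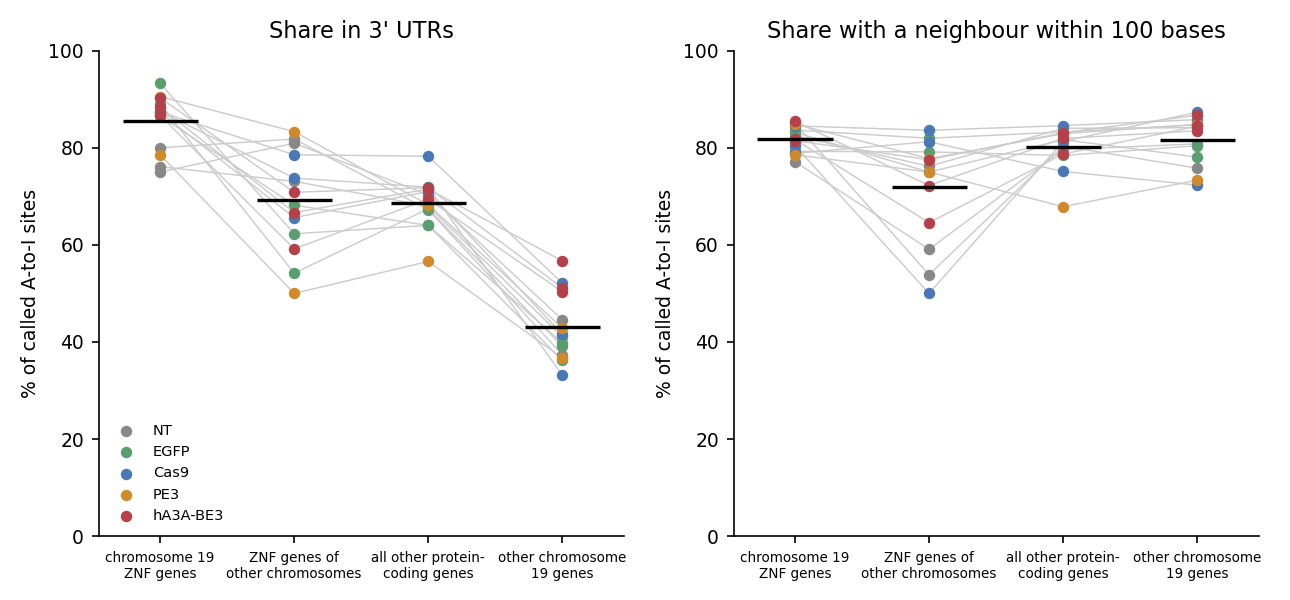
Share of called A-to-I sites in 3′ UTRs (left) and with another site within 100 bases (right) for 4 sets of genes; each line joins the values of 1 library, points are coloured by group and bars give the mean of 14 libraries. The 3′ UTR share of the chromosome 19 ZNF genes (mean 85.5%) is above that of all other protein-coding genes in every library, and the clustered shares overlap.

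The median level of these sites was 14.8% ± 3.54 (SD, n = 14), 15.2% ± 4.95 in other protein-coding genes and 16.3% ± 6.15 in other chromosome 19 genes, with adjusted p = 0.531 and 0.173 by the exact sign-flip test. Both passed the same exact test, with the zinc finger genes lower, at 10% edited or more (−1.71 and −2.77 points, adjusted p = 0.00586 each) and with at least 5 mutated reads (−6.84 and −7.60, adjusted p = 0.00256 and 0.00537). Without the 3 leading genes the difference from other protein-coding genes turned to 1.63 (exact sign-flip test, adjusted p = 0.0339). Other ZNF genes had a higher median, 19.1% ± 10.6, in 11 of 14 libraries (−4.29 points for the chromosome 19 genes, exact sign-flip test, adjusted p = 0.0126). With sites that have a match in another gene left out that was −3.61 (exact sign-flip test, adjusted p = 0.304), and without the 3 leading genes −2.18 (adjusted p = 0.396). Median coverage was 21.9 ± 4.8 reads in the zinc finger genes, 22.9 ± 5.30 in other protein-coding genes and 25 ± 6.65 in other chromosome 19 genes (adjusted p = 0.305 and 0.0693, exact sign-flip test).

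Inverted copies were common around these sites. Of 383 exonic A-to-I sites 261 (68.1%) lay in a stretch with an inverted copy in the same transcript, defined as at least 100 aligned bases at 70% identity or more, and 76.3% of the 3′ UTR sites did. Such stretches made up 12.3% of the bases of the transcripts concerned. For other protein-coding genes the shares were 61.0% of sites and 7.35% of bases, and for other ZNF genes 47.4% and 4.11%. A G preceded the adenosine at 6.27% of the exonic sites and at 7.93% of those of other protein-coding genes, and a G followed at 39.2% and 44.3%.

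In ZNF121 the 44 sites, all in the 3′ UTR, ran from 329 to 4307 bases after the coding sequence. The longest inverted pair there aligned 301 bases at 73.1% identity with 252 bases between its arms, and its arms held 14 and 7 sites. A further pair of 297 bases at 78.8% identity joined a stretch near the coding end, with 9 sites, to the same 14-site arm. In ZNF431 the 3′ UTR is 12022 bases long, with the stop codon, and holds 45 sites from 110 to 7376 bases after the coding sequence. A stretch from 30 to 325 bases held 16 of them and had an inverted copy of 300 aligned bases at 79.0% identity. Another, from 5832 to 6139, held 17. In ZNF724 none of 21 sites had an inverted copy in its transcript by these limits, although 73 calls were made in all 14 libraries.

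**Figure D4:**
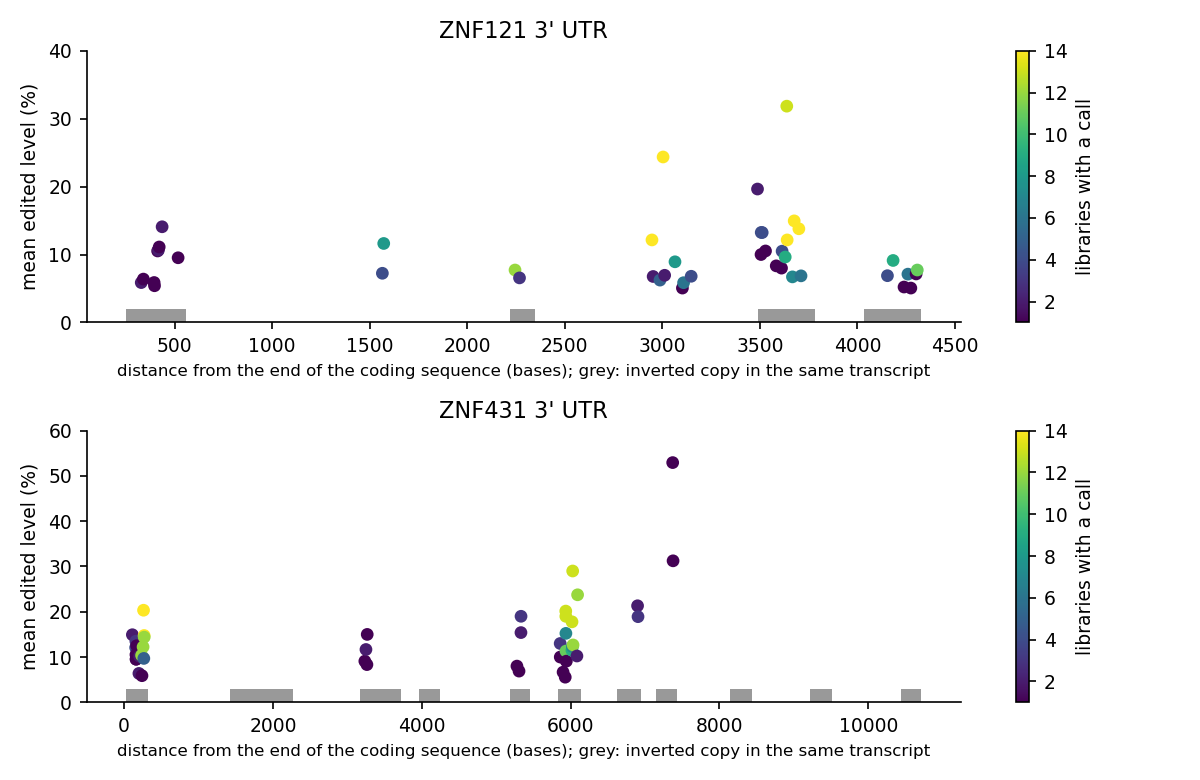
Mean edited level of each A-to-I site (percent, over the libraries that called it) against its distance from the end of the coding sequence in the 3′ UTRs of ZNF121 and ZNF431; colour gives the number of libraries and grey bars mark stretches with an inverted copy in the same transcript. In ZNF431 the sites called in 12 or more libraries lie in grey stretches, among them those from 30 to 325 and from 5832 to 6139 bases, and in ZNF121 5 of the 7 do.

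Coding A-to-I sites were 45, of which 29 changed an amino acid and 16 were synonymous, and 9 lay in a finger. A site counted as coding where any annotated model had it in coding sequence, short alternative models included. ZNF714 alone held 12 of the 45. ZNF331 R110R, upstream of the 12 fingers of a KRAB zinc finger protein, was called in 12 libraries (8 controls, 1 PE3 and 3 hA3A-BE3) at 12.9% to 36.8%, with a median of 23.3%, on 19 to 69 reads. Its 21-base window occurs in no other gene. ZNF431 H39R was called in 7 controls and 2 hA3A-BE3 libraries at 15.6% to 52.9% (median 21.7%), and ZNF714 N104S in 5 libraries at 7.69% to 15.0%. These 2 lie in short alternative models of 40 and 110 residues without a finger (the first within the range of the ZNF431 3′ UTR sites of the longer model), and their changed windows occur in 1126 and 170 other genes. ZNF551 M74V and ZNF260 K308E were called in hA3A-BE3 replicates 1 and 3 only, at 12.5% and 12.8% and at 14.3% and 5.88%. Over all coding A-to-I sites, 51.1% of changed windows occurred in another gene, against 11.8% in other protein-coding genes.

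Changes other than A-to-I and C-to-U were more widespread in zinc finger genes too, with 55 genes or 22.1%, against 5.61% of all protein-coding genes and 13.5% of other ZNF genes. They numbered 157 sites, led by 60 T-to-C and 44 G-to-A changes, and 131 were called in 1 library. Libraries of hA3A-BE3 held 16, 8 and 20 of them, PE3 9 and 6, and controls 7 to 22. In coding sequence 42.6% of the 101 sites had a changed window that occurs in another gene, against 4.94% of 708 in other protein-coding genes and 41.2% in other ZNF genes. The part of misplaced reads in these calls was not tested further.

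ZNF814 held 28 of the T-to-C changes, 27 in introns, over 7899 bases in 9 libraries, at 7.41% to 53.3%. A T-to-C change on the strand of a gene reads as A-to-G on the other, and no annotated gene lies on the opposite strand there. ZNF101 G288G, a G-to-A change in a finger, was called in 5 controls and all 3 hA3A-BE3 libraries at 9.09% to 27.6% (mean 14.8% ± 6.14, SD, n = 8). ZNF91, the KRAB zinc finger gene known for silencing SVA elements, had 13 sites of these other changes in 7 libraries at 5.26% to 10.8%. ZNF562 had 9 in 5 libraries and ZNF431 11 in 4.

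The genes were also split by the KRAB-A match, a single fixed pattern sought in a single coding model per gene. A gene without the match may still carry a KRAB domain, so this is no split by presence of the domain. Of the 177 genes with a KRAB-A match 43 (24.3%) had an A-to-I site and 50 (28.2%) a hA3A-BE3 C-to-U site. Of the 71 without, 14 (19.7%) and 15 (21.1%) did. A hA3A-BE3 C-to-U site was present in 34 of the 58 genes with an A-to-I site (58.6%) and in 31 of the 191 without one (16.2%). Both kinds of call need covering reads, and 149 of the zinc finger genes had no called site of any kind. The same split was not made over all protein-coding genes, so a link between the kinds of site cannot be read from these shares. No test was made on these counts.

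Of 25 co-repressor genes through which KRAB zinc finger proteins act, 11 (44%) had a hA3A-BE3 C-to-U site and 7 (28%) an A-to-I site, where 23.1% and 6.54% of all protein-coding genes did. No test was made on these counts. CBX5, which encodes heterochromatin protein HP1 alpha, led with 9 of each, and DNMT1, the maintenance DNA methyltransferase, had 5 hA3A-BE3 sites and the single C-to-U call made outside that group. EHMT1, a histone H3 lysine methyltransferase, had 4. CBX1, for HP1 beta, held 2 recurrent sites, with its leading 3′ UTR site at 21.9% ± 1.67 (SD, n = 3), and MTA2, a subunit of the NuRD complex, 1 at 12.6% ± 5.16. TRIM28 itself had 1 site, a change of another kind, and SETDB1, the methyltransferase it recruits, had 0 listed.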

How the data were processed

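Total RNA of 14 libraries was depleted of ribosomal RNA and sequenced in stranded pairs of 150 bases, per the labels' protocols. BWA 0.7.17 and GRCh38 are named in the submitters' processing notes, while for the site caller a name was not given in the sources used here. As deposited, the lists give per site counts of covering reads for each base, the edited fraction, and a coverage signal equal to a depth count divided by a constant of the list. That constant was read here as mapped Gb, since the lists have no header. Sites were placed on GENCODE 29 genes, and the reference base equalled the transcript base at 17541 of 17541 exonic sites.

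The members and lists were chosen with earlier results of these data known. Python 3.11.15, pandas 2.3.3, scipy 1.17.1 and blastn 2.17.0 were used. Fingers (C-x2-4-C-x12-H-x3-5-H) and KRAB-A matches (D-V-x-V/I/L-x-F-S/T-x-x-E-W) were read from translations of GENCODE 29 coding models, in place of the RefSeq proteins planned. Group comparisons used log2(sites + 1) or percentage points with two-sided exact permutation tests over libraries, and gene sets were compared within libraries by exact sign-flip tests. Benjamini-Hochberg adjustment covered 10 and 12 comparisons, with 0.05 as threshold. The tests were tested on simulated data. Genes and sites were named by rule: the 10 genes with the most A-to-I sites, sites shared by all libraries, recurrent hA3A-BE3 sites, stop and missense sites in at least a pair of libraries, the leading coding A-to-I, control C-to-U and other changes, and co-repressors by number of sites. Finger examples, PE3 sites called once, ZNF548, the co-repressors CBX1, MTA2, TRIM28 and SETDB1, and further control sites were named after their values were seen. Alternatives covered depth, level, scale, clustering window, KRAB-A members and left-out libraries. A pair was chosen after seeing the data: leaving out sites whose changed window occurs in another gene, and leaving out the 3 leading genes.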

Additional observations from a re-analysis of the deposited data

How the results depend on the processing

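Of 476 recomputed values 375 kept their direction and side of the threshold, 44 reversed (5 of them gaining a call and 1 losing it), 42 others lost their call and 15 others gained one, and the cause was not tested. With at least 20 covering reads the hA3A-BE3 C-to-U difference was 4.04 (log2) and that of the C-to-U share −4.98 points. With 50 reads they were 3.78 and −0.57, and with 5 mutated reads 2.60 and −9.00. The labels do not say that a replicate number marks a shared source, and the libraries were not treated as paired. Of 26 same-numbered pairs, with r from −0.122 to 0.183 (median 0.0588), 4 exceeded 0.1, and of 52 pairs with different numbers (median −0.0251) 2 did. Same-numbered pairs thus leaned higher. The r values are not independent, as PE3 replicates 2 and 3 gave −0.0427 and 0.0427 with NT replicate 1, so they cannot decide on pairing. With the replicate block both hA3A-BE3 C-to-U differences kept their value, 3.70 and −6.18, at exact p = 0.03125 and adjusted p = 0.156, above the threshold. Leaving out a library gave 3.30 to 4.16 and −6.59 to −5.57, and all adjusted p rose above 0.05. For PE3 the ranges were −1.09 to 0.23 (A-to-I sites), −0.33 to 0.084 (C-to-U sites), −2.04 to 0.012 (C-to-U share) and −1.05 to 4.36 (shared level). The hA3A-BE3 shared level ran from −1.44 to 1.12, and per Gb the PE3 differences were 0.10 (A-to-I) and 0.40 (C-to-U).

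Gene-set differences below are in percentage points (coverage in reads), for the chromosome 19 ZNF genes minus other protein-coding genes, minus ZNF genes of other chromosomes or minus other chromosome 19 genes. With at least 20 reads, clustered share, level and coverage against other protein-coding genes were −0.51, 0.33 and 0.54, and with 50 reads −0.27, 0.069 and 38.8. With at least 5 mutated reads the 3′ UTR share against other ZNF genes was 10.1, the clustered share 5.86 against ZNF and −2.84 against chromosome 19 genes, the hA3A-BE3 shared level 1.31, coverage 13.3 (ZNF), 3.25 (chromosome 19) and 7.57 (other protein-coding), and level −7.60 (chromosome 19) and −6.84 (other protein-coding). At 10% edited or more the PE3 values were 0.033 (C-to-U sites), −0.24 (A-to-I share) and 0.22 (C-to-U share), the hA3A-BE3 shared level 1.54, clustering 6.94 (ZNF) and 4.09 (other protein-coding), coverage −0.11 (ZNF) and −2.29 (chromosome 19), and level −2.77 (chromosome 19) and −1.71 (other protein-coding). Over 3′ UTR sites clustering was −0.10 (ZNF), coverage −4.46 (chromosome 19) and −2.5 (other protein-coding), and level 0.37 (other protein-coding). With a window of 50 bases clustering was 5.45 (ZNF), −3.52 (chromosome 19) and −1.07 (other protein-coding). For KRAB-A members clustering was 2.43 (other protein-coding), the hA3A-BE3 shared level 1.77, coverage −4.29 (chromosome 19) and −2.11 (other protein-coding), level −3.16 (ZNF) and 0.64 (other protein-coding), and the PE3 A-to-I share −0.78. The shared level of the KRAB-A members rests on ZNF431 sites alone. Without sites whose changed window occurs elsewhere, an alternative chosen after seeing the data, clustering was 0.89 (ZNF), −6.33 (chromosome 19) and −0.71 (other protein-coding), coverage 0.071 (other protein-coding) and level −3.61 (ZNF). Without the 3 leading genes, also chosen after seeing the data, the 3′ UTR share was 9.95 (ZNF), clustering 4.39 (ZNF), −5.26 (chromosome 19) and −3.88 (other protein-coding), coverage −1.54 (ZNF), −5.86 (chromosome 19) and −3.68 (other protein-coding), level −2.18 (ZNF), 0.60 (chromosome 19) and 1.63 (other protein-coding), and the PE3 A-to-I share −0.51. Leaving out a library, clustering against chromosome 19 genes ran from −0.37 to 0.88 and coverage from −3.81 to −2.58. At 20 reads no value could be had against other ZNF genes, and at 50 reads none against either set or for the shared level, because a library kept no site there. At a median of 25 reads per call, levels under the listed minimum are not seen.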
